A study of Mus musculus with 39 samples.

Results

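The genes of oxidative phosphorylation were followed across 2 brain regions, 2 genotypes and 2 training states of female mice. Members were chosen by name from the gene rows of both deposited count tables. The rule took the 13 mitochondrially encoded mRNAs (ND1 to ND6, ND4L, COX1 to COX3, ATP6, ATP8 and CYTB). It also took nuclear rows with the common name patterns of subunits of complexes I to V. These are Nduf with a, b, c, s or v and a number, Sdh, Uqcr, Cox4 to Cox8 and Atp5. The subunits Ndufab1 of complex I and Cyc1 of complex III fall outside these patterns. It found 98 members among 50559 genes, 13 mitochondrially encoded and 85 nuclear. Grouped by name, the nuclear members comprise 37 of complex I, 4 of complex II, 8 of complex III, 19 of complex IV and 17 of complex V. Ndufa4 is thereby counted under complex I. The rule uses names alone and no measured value.

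The libraries come from bulk lysate of the basolateral amygdala (BLA) and the hippocampus at 9 months of age. APP/Tau mice carry an amyloid precursor protein transgene (APPSw,Ind, line J9) and a mutant tau transgene (Tau P301S, line PS19), both on C57BL/6. All groups, the controls included, also carry CaMKIIα-Cre, expressed in glutamatergic neurons of the postnatal forebrain, and 1 copy of the RiboTag allele, but only the unselected input RNA was sequenced. Trained mice heard a tone that ended with a footshock and were killed 1 h later, and naive mice were not conditioned. The hippocampus gave 5 control naive, 6 control trained, 5 APP/Tau naive and 4 APP/Tau trained libraries. The BLA gave 5, 5, 5 and 4 libraries in the same order.

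Oxidative phosphorylation passes electrons from NADH and succinate through complexes I to IV of the inner mitochondrial membrane to oxygen, and complex V, the ATP synthase, uses the resulting proton gradient to make ATP. Complex II is built from nuclear genes alone, whereas the others combine subunits made in the cytosol from nuclear mRNAs with subunits made inside the mitochondrion from mitochondrial DNA. In the brain most of this ATP serves ion pumping and synaptic transmission. The mitochondrial genes are transcribed as long precursors from both strands of a compact circular genome. These are cut into shorter RNAs, so their levels also depend on processing and stability.

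Total counts ran from 92.1 to 128 M per hippocampal library and from 50.3 to 74.3 M per BLA library. Hippocampal libraries were made from 50 ng and BLA libraries from 10 ng of RNA, and each lysate had been spun at 10000 g for 10 min and the supernatant kept, so the mitochondrial levels below are those of RNA left after that spin. Between the tissues 64.5% of all genes tested were called, 30% higher and 34.5% lower in the BLA. Of the markers checked, 6 of 7 for hippocampal neurons were higher in the hippocampus, 4 of 6 for BLA neurons were higher in the BLA, and 8 of 8 for striatum and central amygdala were higher in the BLA punches. The summed level of those 8 genes ran from 437 to 4679 CPM (counts scaled by library size) across BLA libraries. Neurod6 is in both neuron lists. Summed choroid plexus markers ran from 215 to 1454 CPM in hippocampal libraries and from 4.98 to 13.9 CPM in BLA libraries. The part of that tissue in the differences between regions was not tested. In all, 3 libraries, each a control, held at least 5000 CPM of the 18S ribosomal RNA row Rn18s-rs5: hippocampal naive replicate 1, hippocampal trained replicate 1 and BLA naive replicate 1. The labels do not say that each library is a separate mouse, so p-values measure the spread between these libraries.

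The counts of the mitochondrially encoded members fell into a high and a low set that did not follow complexes but position. Levels are given here as mean CPM per kilobase of transcript, a scale on which genes of unlike length can be compared. The length is that of the GENCODE transcript with the longest coding sequence. It reaches 4715 bases for Atp5g1 and 4371 for Ndufb2, so the values of nuclear members are approximate. In the hippocampus 7 members lay between 2084 (ND4) and 7928 (COX1) CPM per kilobase. The other 6 (COX2, ATP8, ATP6, COX3, ND3 and ND4L) lay between 8.87 (ND3) and 34.7 (ATP6). In the BLA the same 7 members lay between 1664 and 7139, and the same 6 between 16.6 and 75.4. The 6 low members occupy places 4 to 9 in the order of the 13 genes along the mitochondrial genome, with no high member between them. ND4L, a low member at 11.1 in the hippocampus, overlaps ND4, a high member at 2084. For comparison, the 85 nuclear members had a median of 79.7 CPM per kilobase in the hippocampus and 91.2 in the BLA, with Atp5b, the catalytic beta subunit of the ATP synthase, highest in the hippocampus at 511.

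Most of the low members have a sequence that recurs almost whole in the nuclear genome. In the GRCm38 transcripts of GENCODE, 5 of the 6 low members shared 98.0 to 100% of their 50-base stretches, the length of the reads, with transcripts of other genes. ATP8 shared none, but it overlaps ATP6 and lies between COX2 and ATP6. Among the high members the share was 62.2% for ND4, 51.1% for COX1, 8.19% for ND2, 7.61% for ND5 and 0% for ND1, ND6 and CYTB. The sharing partners of ND4, ND4L, ND3, COX3, ATP6, COX2 and COX1 are 7 annotated genes in places 1 to 7 beside each other on chromosome 1, in the reverse order of the mitochondrial genome. ATP6 and its copy Gm10925 differed at 0 of 678 aligned bases and ND4L and its copy Gm10222 at 0 of 294. ND2 and its copy Gm13339 on chromosome 2 differed at 17 of 510.

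The following stretches show what a 50-base read can and cannot tell apart. Within the window shown, ATP6 and Gm10925 are identical, whereas ND2 and Gm13339 differ at 3 bases, which are in capitals. Sequences are from the GENCODE transcripts of build GRCm38, 5′ to 3′, bases 310 to 369 of ATP6 and of its copy, 754 to 813 of ND2 and 226 to 285 of its copy.
ATP6: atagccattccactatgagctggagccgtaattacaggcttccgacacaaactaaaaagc
ATP6 copy Gm10925: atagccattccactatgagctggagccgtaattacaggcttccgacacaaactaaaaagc
ND2: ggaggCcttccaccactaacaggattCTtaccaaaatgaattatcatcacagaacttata
ND2 copy Gm13339: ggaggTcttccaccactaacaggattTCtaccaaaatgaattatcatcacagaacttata

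How the authors' counting treated reads that fit both places is not given in the sources used here. Of the chromosome 1 copies, Gm10925 and Gm10222 have rows in the count tables. The counts of Gm10925 exceeded those of ATP6, by a ratio of 1.17 ± 0.0481 (SD, n = 20) in the hippocampus and 2.97 ± 0.192 (SD, n = 19) in the BLA. The part of the shared sequence in the low levels was not tested. The values of the 6 low members below are therefore uncertain as measures of mitochondrial RNA. Those of ND4 and COX1, which share 62.2% and 51.1% of their stretches, are uncertain in part. Sums over the 13 members are set by the 7 high ones. The 6 low members together gave 61.3 to 93.8 CPM of each hippocampal library and 108 to 208 CPM of each BLA library.

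**Figure D1:**
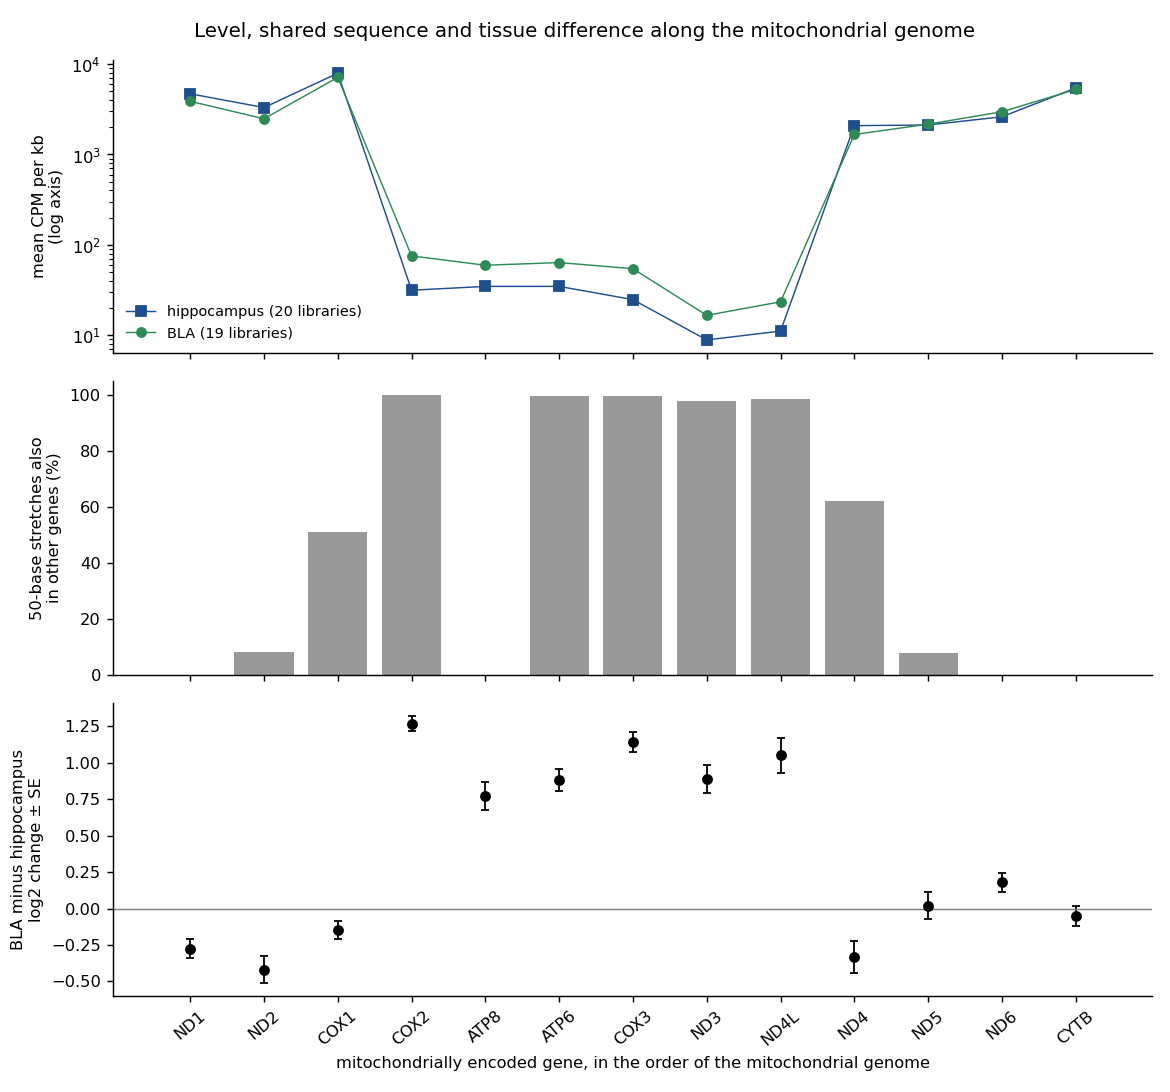
The 13 mitochondrially encoded genes in genome order, with mean CPM per kilobase on a log axis in the hippocampus and the BLA (top), the percentage of 50-base stretches also found in other genes (middle) and the BLA minus hippocampus log2 change with its SE (bottom). The 6 genes from COX2 to ND4L are low in both tissues and higher in the BLA by 0.77 to 1.27, whereas ND4 next to them has a log2 change of -0.33.

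The mitochondrially encoded members took 2.97 to 3.91% of all counts in the hippocampus and 1.77 to 4.06% in the BLA. The 85 nuclear members together took 0.757 to 0.913% in the hippocampus and 0.844 to 1.22% in the BLA. The log2 ratio of the former sum to the latter was 2.06 ± 0.11 (SD, n = 5) in hippocampal naive controls, 2.09 ± 0.07 (n = 6) in trained controls, 1.97 ± 0.12 (n = 5) in naive APP/Tau and 1.94 ± 0.07 (n = 4) in trained APP/Tau mice. In the hippocampus 5 of 9 APP/Tau libraries lay below the lowest control ratio of 1.97 and all 9 below the control median of 2.10, while the groups overlapped. In the BLA the ratio was 1.52 ± 0.61 (n = 5) in naive controls, 1.90 ± 0.28 (n = 5) in trained controls, 1.67 ± 0.27 (n = 5) in naive APP/Tau and 1.47 ± 0.36 (n = 4) in trained APP/Tau mice, and the groups overlapped throughout. The lowest BLA ratio, 0.54, came from naive control replicate 1, the library rich in 18S RNA. Without it the other 4 naive controls averaged 1.77 ± 0.32. These ratios are given as a description with no test.

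**Figure D2:**
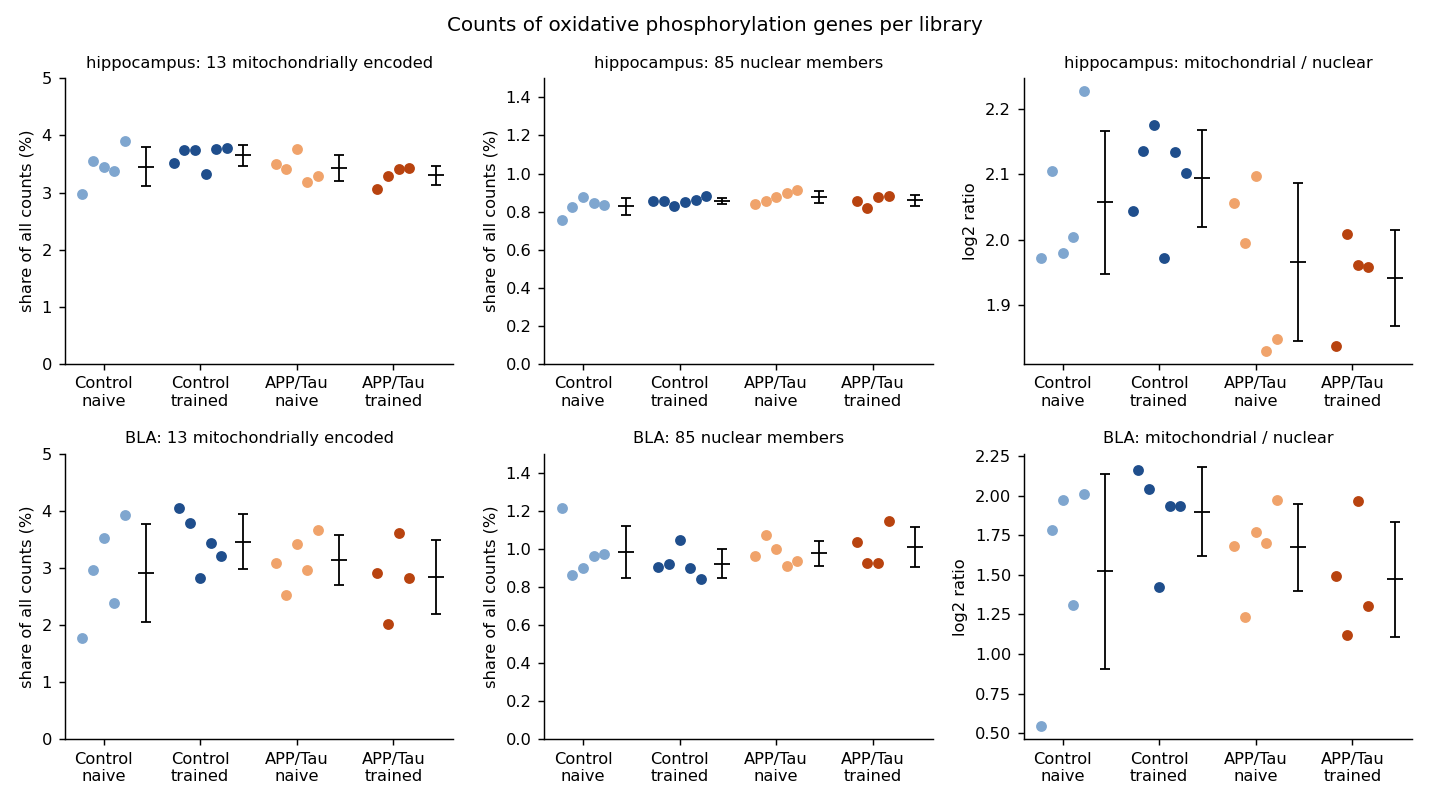
Share of all counts held by the 13 mitochondrially encoded members (left) and the 85 nuclear members (middle), and the log2 ratio of both sums (right), in the hippocampus (top) and the BLA (bottom). Each point is 1 library, and bars show the group mean with its SD. The hippocampal ratio of APP/Tau libraries runs from 1.83 to 2.10 and that of controls from 1.97 to 2.23, and BLA ratios spread from 0.54 to 2.16.

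In the hippocampus every mitochondrially encoded mRNA was estimated lower in APP/Tau than in control mice, and 2 of the 13 passed the test. The averaged genotype effect weights naive and trained mice equally. Its log2 change ran from -0.20 (ND3) to -0.08 (ND6) with a median of -0.15, and 7 members had an unadjusted p under 0.05. So did 7344 of all 25791 genes tested. With edgeR's quasi-likelihood test and Benjamini-Hochberg adjustment over all 25791 genes tested, ND4 and ND2, both membrane subunits of complex I, fell. In the same comparison 11.1% of all genes were called, 7.27% of all genes as higher and 3.8% as lower, and 2 of 13 calls is too few to set against those shares. The median log2 change over all genes was 0.00.

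ND4 encodes a proton-pumping subunit of complex I. Of its 50-base stretches 62.2% recur in other genes, so its values are uncertain in part. The ND4 level was 2753, 2873, 2876, 2563 and 2500 CPM in naive APP/Tau mice and 2229, 2684, 2738 and 2885 CPM in trained APP/Tau mice. In naive controls it was 2769, 2960, 2845, 3009 and 3225 CPM, and in the 6 trained controls it ran from 2758 through a median of 3192 to 3382 CPM. Of the 9 APP/Tau libraries 6 lay below the lowest control and all 9 below the control median, yet the ranges overlapped. The log2 change was -0.19 (SE 0.05, adjusted p = 0.026). The call ended when trained APP/Tau replicate 1, the lowest library, was left out (log2 change -0.15, adjusted p = 0.067), and held without any 1 of the other 19.

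ND2, a neighbouring proton-pumping subunit, ran from 2865 through 3274 to 3427 CPM (lowest, median and highest) in the 9 APP/Tau libraries and from 2985 through 3708 to 3996 CPM in the 11 control libraries. All APP/Tau libraries lay below the control median and 2 below the lowest control. The log2 change was -0.16 (SE 0.05, adjusted p = 0.045), and the call was lost in 14 of the 20 fits that left out 1 library and without a filter on low counts (adjusted p = 0.072).

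Of the other high members, CYTB, the mitochondrial subunit of complex III, ran from 5212 through 5960 to 6563 CPM in APP/Tau and from 5990 through 6498 to 6963 CPM in control mice. Its log2 change was -0.13 (SE 0.05) and did not pass (adjusted p = 0.061), with 5 of 9 APP/Tau libraries below the lowest control. COX1, the catalytic subunit of complex IV, gave -0.13 (adjusted p = 0.098), ND1 -0.12 (adjusted p = 0.23), ND5 -0.13 (adjusted p = 0.20) and ND6 -0.08 (adjusted p = 0.45). ND5 and ND6 overlap on opposite strands, and since strand use in the counting is not given their reads may not have been told apart. Among the 6 low members the log2 changes were -0.20 for ND3, -0.19 for ND4L, -0.15 for COX3, ATP6 and ATP8 and -0.14 for COX2, and none of these 6 passed.

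The genotype effect was also taken within each training state. In naive mice 11 of 13 members lay below 0, with a median log2 change of -0.06, and none passed the edgeR test (0.202% of all genes were called, 0.109% higher and 0.0931% lower, and 0 mitochondrially encoded members had an unadjusted p under 0.05). In trained mice all 13 lay below 0, from -0.31 (ND4L) to -0.17 (ND6) with a median of -0.23. None passed in trained mice, where 2.8% of all genes were called (2.65% higher and 0.143% lower). There 8 members had an unadjusted p under 0.05, as did 5245 of all 25791 genes. In naive mice 3916 of all genes did. DESeq2 called 4 in trained mice (ND4, ND2, CYTB and COX1), where it called 6.16% of all genes, and limma-voom called 0 in either state. Whether the genotype effect differed between naive and trained mice was tested as an interaction, which gave a median log2 difference of -0.14 with 0 of 13 members called by edgeR, DESeq2 or limma-voom, 0% of all genes called by edgeR, and 1 member at an unadjusted p under 0.05. That unadjusted level was reached by 1005 of all 25791 genes.

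**Figure D3:**
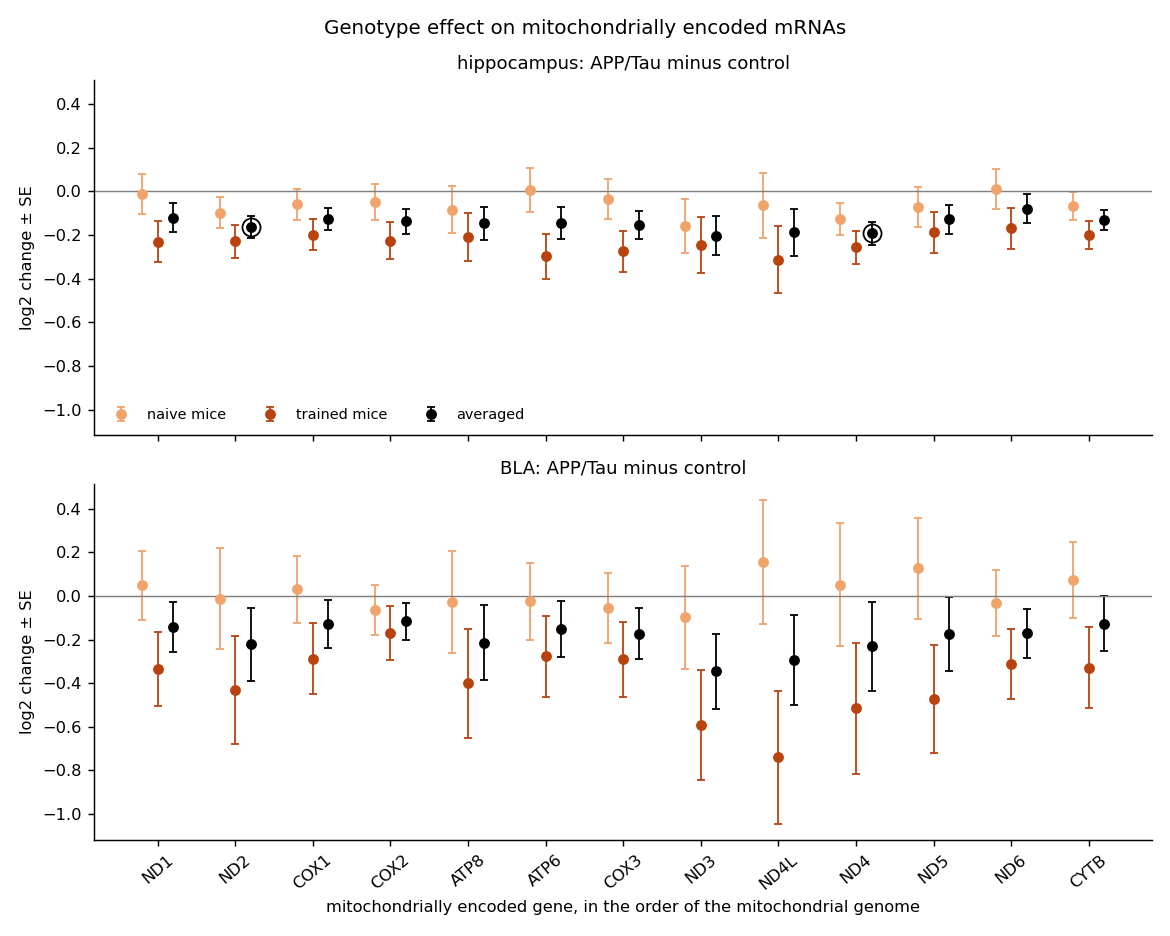
APP/Tau minus control log2 change with its SE for each mitochondrially encoded mRNA in the hippocampus (top) and the BLA (bottom), in naive mice, in trained mice and averaged over both. Circles mark the 2 averaged effects that passed the test, ND2 at -0.16 and ND4 at -0.19 in the hippocampus. In both tissues all 13 averaged and all 13 trained estimates lie below 0.

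The averaged genotype estimates of the nuclear members lay on both sides of 0 in the hippocampus. Of 84 tested, 45 lay above 0 and 39 below, with a median averaged genotype log2 change of 0.00, and 1 passed (1.19%, against 11.1% of all genes). The averaged value joins estimates of opposite sign. In naive mice the nuclear median log2 change was 0.05 (66 of 84 above 0, 8 at an unadjusted p under 0.05) and in trained mice -0.05 (58 of 84 below 0, 11 at an unadjusted p under 0.05), and the interaction had a median of -0.09 (72 of 84 below 0, 7 at an unadjusted p under 0.05). With edgeR 0 nuclear members were called in each of these, and DESeq2 called Cox6b2 in trained mice and limma-voom 0. Of all 25791 genes, 3916 in naive mice, 5245 in trained mice and 1005 for the interaction had an unadjusted p under 0.05. By complex the averaged medians were 0.00 for complex I (37 members), 0.03 for complex II (4), 0.02 for complex III (8), 0.00 for complex IV (18) and -0.01 for complex V (17). The 7 nuclear core subunits of complex I, which carry its flavin and iron-sulphur centres, ran from -0.05 to 0.05. The members of complexes II to V with the most counts (CPM, not per kilobase) gave small values as well: -0.03 for Sdha and Atp5b, -0.04 for Cox4i1 and -0.05 for Uqcrc2, none of them called. Cox8c was not tested, with 0 to 2 counts in every hippocampal library.

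The nuclear member that passed was Cox6b2, an isoform of a complex IV subunit best known from testis. Its level was 2.37, 1.88, 2.65, 1.28 and 3.27 CPM in naive and 4.50, 1.69, 3.18 and 1.57 CPM in trained APP/Tau mice. In naive controls it was 1.58, 2.44, 1.62, 1.23 and 1.66 CPM, and in the 6 trained controls it ran from 1.28 through 1.40 to 1.88 CPM. The ranges overlapped, with 4 of 9 APP/Tau libraries above the highest control. The log2 change was 0.66 (SE 0.19, adjusted p = 0.034). The call ended in 9 of the 20 fits that left out 1 library (lowest value 0.49, adjusted p = 0.11, without trained APP/Tau replicate 1) and without both 18S-rich control libraries (adjusted p = 0.0685), and with limma-voom (0.61, adjusted p = 0.058). Its common counterpart Cox6b1 gave -0.02 (adjusted p = 0.82).

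The next smallest p-values belonged to Ndufa2 (0.14, adjusted p = 0.063) and Ndufv3 (0.08, adjusted p = 0.13), both subunits of complex I that did not pass. Other isoforms of restricted tissue expression also stayed short of the threshold: Cox4i2 at 0.22 (adjusted p = 0.36), Cox6a2 at 0.32 (adjusted p = 0.26), Cox7a1 at 0.10 (adjusted p = 0.79) and Cox8b at 1.02 (SE 0.46, adjusted p = 0.15) on a mean of 0.44 CPM. Their counterparts Cox4i1, Cox6a1, Cox7a2, Cox7a2l, Cox7b and Cox8a ran from -0.13 (Cox8a) to 0.02 (Cox7a2), and Ndufa4, now counted with complex IV, gave -0.01. The ATP synthase subunit genes on chromosome 16, which also holds App, gave 0.02 for Atp5j and -0.03 for Atp5o. Reads from the overlapping ends of Atp5j and Gabpa may not have been told apart.

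Markers of other cell types moved with genotype in the same hippocampal libraries. Of the marker genes, 5 of 6 for astrocytes, 5 of 6 for microglia, 5 of 5 for plaque-associated microglia and 4 of 6 for oligodendrocytes rose, while 2 of 7 for hippocampal neurons and 1 of 5 for all neurons fell. Of all genes 7.27% were called higher and 3.8% lower. The summed astrocyte markers ran from 1684 to 7274 CPM in APP/Tau and from 1289 to 1534 CPM in control libraries, and the summed microglial markers from 366 to 1253 and from 279 to 356 CPM. The sum for all neurons ran from 4143 to 5811 CPM in APP/Tau and from 4187 to 6151 CPM in control libraries. That for hippocampal neurons ran from 363 to 766 CPM in APP/Tau and from 658 to 872 CPM in control libraries. The lowest of these, 363 CPM, was in trained APP/Tau replicate 1, which held 6759 CPM of astrocyte markers. No marker list summed to 0 in any library. The 7SK RNA row Rn7sk, taken as a sign of RNA quality, was called lower in APP/Tau. It was at 82.4 and 79.1 CPM in the 18S-rich controls, naive replicate 1 and trained replicate 1. In the other controls it ran from 0.9 to 10.8 CPM and in APP/Tau libraries from 1.2 to 4.2 CPM. The part of these markers and of Rn7sk in the lower mitochondrial values was not tested. In bulk tissue fewer cells of a type and less RNA per cell cannot be told apart. Without the 18S-rich libraries ND4 gave -0.21 (adjusted p = 0.031) and ND2 -0.19 (adjusted p = 0.029).

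Genes that serve the respiratory chain without belonging to it were taken from lists. Of 49 assembly factors tested, Surf1, needed to build complex IV, rose by 0.12 (SE 0.04, adjusted p = 0.034) and the other 48 did not pass. For the averaged genotype effect 7344 of all 25791 genes had an unadjusted p under 0.05. With edgeR 0 of 16 genes of mitochondrial DNA transcription and replication, 0 of 19 of mitochondrial RNA processing and stability and 0 of 12 nuclear regulators of respiratory genes passed, with 2, 4 and 5 of them at an unadjusted p under 0.05. Among them were Polrmt, the mitochondrial RNA polymerase (-0.04), Tfam, which packages mitochondrial DNA (0.01), and Lrpprc, which stabilises mitochondrial mRNAs (-0.03). Among 17 carriers and related subunits 2 rose and 2 fell: Ucp2, an inner-membrane carrier abundant in microglia, rose by 0.94 (SE 0.15), Etfdh rose by 0.12, and Gpd2, the mitochondrial glycerol phosphate dehydrogenase, fell by 0.28 and Slc25a14 by 0.16. In the mitochondrial ribosome list 2 of 75 rose (Mrps6 by 0.39 and Mrpl52 by 0.15) and Mrpl14 fell by 0.26. For glycolysis 3 of 19 rose, Hk2 by 0.67, Slc2a1 by 0.22 and Aldoc by 0.17, and Slc2a3, the neuronal glucose transporter, fell by 0.17. The citrate cycle list had 1 of 16, Suclg2, higher by 0.43. These shares lie at or below the 11.1% called among all genes, apart from the carriers (4 of 17) and glycolysis (4 of 19). The mitochondrial ribosomal RNAs mt-Rnr1 and mt-Rnr2, which carry the same genome's label, gave -0.32 (SE 0.11, adjusted p = 0.064) and -0.29 (SE 0.11, adjusted p = 0.099), and neither passed. Their summed share of counts was 1.49% in 18S-rich naive control replicate 1. It ran from 0.872 to 1.04% in the other controls and from 0.654 to 0.995% in APP/Tau libraries.

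In the BLA the averaged genotype effect on the mitochondrially encoded members had the same sign but a wider error. All 13 lay below 0, from -0.35 (ND3) to -0.12 (COX2) with a median log2 change of -0.17, and none passed. There edgeR called 1.18% of 23168 genes (0.997% higher and 0.181% lower), 0 of 13 members had an unadjusted p under 0.05, and DESeq2 and limma-voom also called 0. Of all 23168 genes 4399 had an unadjusted p under 0.05. ND4, to take the gene that passed in the hippocampus, was at 2350, 1320, 2281, 2296 and 2866 CPM in naive and 1837, 1281, 2825 and 1762 CPM in trained APP/Tau mice. In controls it was at 919, 2393, 2845, 1536 and 3027 CPM in naive and 3465, 3213, 1700, 2761 and 2627 CPM in trained mice. The groups overlapped, and the lowest value came from 18S-rich naive control replicate 1. The log2 change of ND4 was -0.23 with an SE of 0.21, against an SE of 0.05 in the hippocampus. The test of whether the averaged genotype effect differed between the tissues called 0 of 97 members (0.0262% of all genes, 0.00748% upward and 0.0187% downward), with 2 nuclear and 0 mitochondrially encoded members at an unadjusted p under 0.05. That unadjusted level was reached by 2228 of 26725 genes.

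Nuclear members in the BLA centred on 0.00, with 38 of 83 above 0 and 45 below, and none was called. Of these, 1 had an unadjusted p under 0.05, against 4399 of all 23168 genes. The smallest p-values belonged to Cox7a1, a muscle-type complex IV isoform, at -0.45 (adjusted p = 0.22), Cox6c at 0.16 (adjusted p = 0.32) and Sdha at -0.08 (adjusted p = 0.36). Cox7a1 was at 2.45, 0.83, 1.24, 1.36 and 1.38 CPM in naive controls and at 0.53 to 0.89 CPM in trained controls. Naive APP/Tau mice had 0.51 to 0.81 CPM and trained APP/Tau mice 0.52 to 1.06 CPM. The naive controls held the 4 highest values of the tissue, the top one in the 18S-rich library, but their lowest overlapped the other groups. For Cox6b2 the BLA value was 0.36 (SE 0.27, adjusted p = 0.49). Cox8b, with 0 to 10 counts, and Cox8c, with 0 counts in every library, were not tested.

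Within the training states the BLA genotype estimates were further apart, and none was called. In naive mice the 13 mitochondrially encoded members had a median log2 change of -0.01, 7 below 0, and the nuclear members one of -0.08, 69 of 83 below 0. The 18S-rich naive control replicate 1 had the lowest mitochondrially encoded share of the tissue, 1.77%, and the highest nuclear share, 1.22%. Its part in these naive medians was not tested. In trained mice the medians were -0.33 (all 13 below 0, from -0.74 for ND4L to -0.17 for COX2) and 0.08 (70 of 83 above 0). With edgeR 0.0388% of all genes were called in naive mice (0.0129% higher, 0.0259% lower) and 0.0432% in trained mice (0.0173% higher, 0.0259% lower). An unadjusted p under 0.05 was reached by 3067 of 23168 genes in naive and 2396 in trained mice. The members at an unadjusted p under 0.05 were 3 nuclear ones in naive mice, Cox7a1 at -1.04 (adjusted p = 0.25), Cox7b at -0.20 (adjusted p = 0.34) and Atp5k at -0.29 (adjusted p = 0.37). In trained mice they were ND4L at -0.74 (adjusted p = 0.40) and ND3 at -0.59 (adjusted p = 0.42). DESeq2 called Cox7a1 in naive mice (-1.04, adjusted p = 0.046), and limma-voom called 0 members in either state.

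ND4L, the small complex I subunit with the widest spread among these, was at 5.41, 3.71, 7.09 and 5.80 CPM in trained APP/Tau mice and at 8.99, 11.5, 4.48, 13.7 and 7.33 CPM in trained controls. It was at 7.35, 4.13, 7.45, 7.64 and 6.84 CPM in naive APP/Tau mice and at 2.84, 6.76, 7.87, 4.89 and 7.64 CPM in naive controls. Of the trained controls 4 of 5 lay above all trained APP/Tau libraries and 1 among them, and the naive groups overlapped. In the same BLA libraries 5 of 5 markers of plaque-associated microglia, 4 of 6 of microglia and 1 of 6 each of astrocytes and oligodendrocytes rose with genotype. Of all genes 0.997% were called higher. Summed astrocyte markers ran from 879 to 3158 CPM in APP/Tau and from 802 to 1018 CPM in controls. The punches themselves also differed: summed BLA neuron markers were 767 ± 252 CPM in naive APP/Tau and 1261 ± 205 CPM in naive control mice (SD, n = 5 each), and summed striatum and central amygdala markers 2210 ± 1437 and 1034 ± 449 CPM. The 8 striatum and central amygdala markers had a median log2 change of 0.65 for the averaged genotype effect, 0.68 for training in controls and -0.95 for the interaction, and the 6 BLA neuron markers one of -0.63, -0.10 and 0.26. The part of these markers in the BLA genotype, training and interaction estimates was not tested.

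Conditioning gave no member called in either tissue or genotype, so its estimates are described only by sign and size. For the training effects in both genotypes and tissues and for their interactions, edgeR, DESeq2 and limma-voom called 0 members, and edgeR called 0% of all genes. In the hippocampus of controls the 13 mitochondrially encoded members lay above 0 after training, with a median log2 change of 0.08, and in APP/Tau mice all 13 lay below 0, with a median of -0.08. The nuclear members went the same way, with medians of 0.04 (73 of 84 above 0) and -0.04 (66 of 84 below 0). At an unadjusted p under 0.05 there were 0 mitochondrially encoded and 7 nuclear members in controls and 0 and 4 in APP/Tau mice. Of all 25791 genes, 624 in controls and 1184 in APP/Tau mice reached that level.

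In the BLA, with all libraries included, the medians of both sets had opposite signs. After training in controls the mitochondrially encoded members had a median log2 change of 0.26, all 13 above 0, and the nuclear members one of -0.09, with 75 of 83 below 0. In APP/Tau mice the medians were -0.12 for the former (12 of 13 below 0) and 0.08 for the latter (72 of 83 above 0). The interaction, training effect in APP/Tau minus that in controls, had a median of -0.38 over the 13, from -0.89 (ND4L) to -0.10 (COX2), and of 0.18 over the nuclear members, with 74 of 83 above 0. Only ND4L among the 13 and Cox7a1 among the nuclear members reached an unadjusted p under 0.05 for the interaction, and neither passed adjustment (adjusted p = 0.95 for both). Of all 23168 genes 894 reached that unadjusted level. Members of 1 library share its composition, so a common sign over many members is no count of independent results. The training estimate in controls rests in part on naive control replicate 1: the difference in the log2 ratio of both sums was 0.38 with all libraries and 0.13 without it. The nuclear share was 1.22% in this library and 0.862 to 0.977% in the other naive controls. It was 0.844 to 1.05% in trained controls. Its part in the nuclear medians, their opposite signs and the interaction was not tested.

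**Figure D4:**
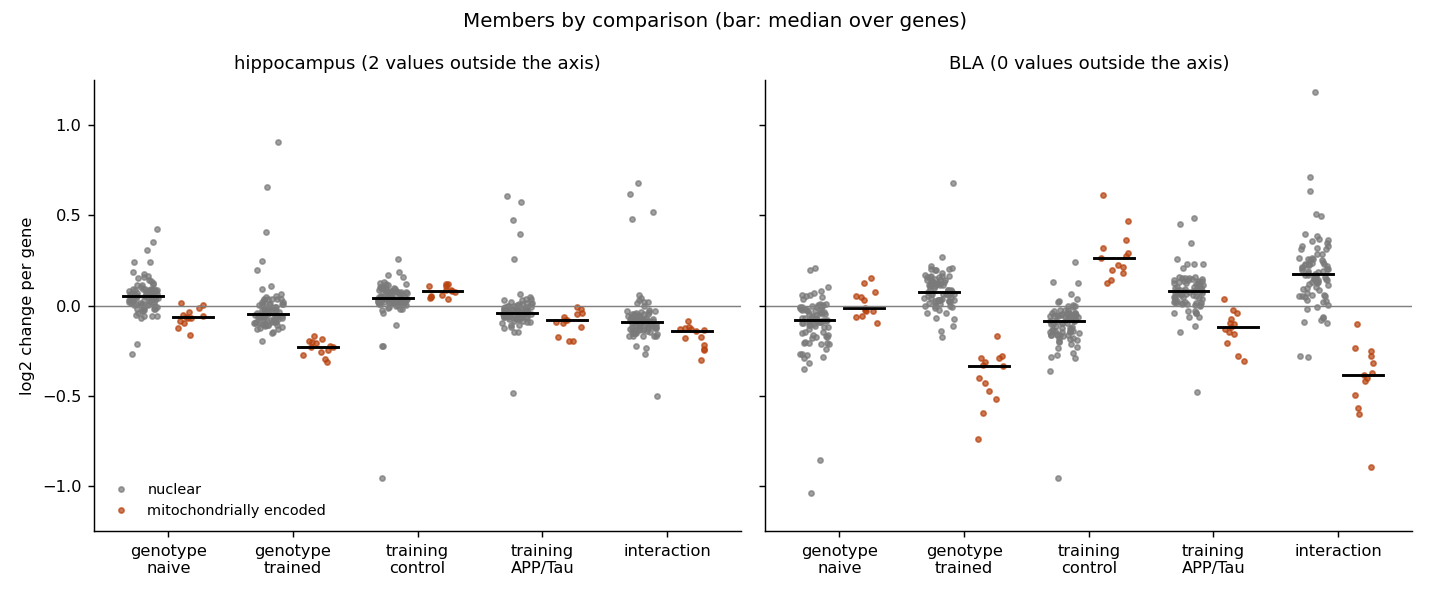
Log2 change of each nuclear (grey) and each mitochondrially encoded (red) member in 5 comparisons per tissue, with the median over genes as a bar and 2 hippocampal values outside the axis. In the hippocampus both sets have medians of the same sign after training, and in the BLA the mitochondrially encoded median is 0.26 in controls and -0.12 in APP/Tau mice against nuclear medians of -0.09 and 0.08, with none of these members called.

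Between tissues the members differed widely, but so did most genes: 64.5% of 26725 genes tested were called, 30% higher and 34.5% lower in the BLA. Libraries of both tissues share library numbers, the labels do not say whether a number is 1 mouse, and the test treats all 39 as independent. The RNA input, the dissection and the depth differ together with the tissue and cannot be told apart from it. Of the 84 nuclear members tested 51 were higher and 9 lower in the BLA, with a median log2 change of 0.20, where the median over all genes was -0.05. Of the 13 mitochondrially encoded members 7 were higher and 4 lower. How many of all genes have ranges that do not overlap between the tissues was not counted, so the overlaps below only describe single members.

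The split of the mitochondrially encoded members followed the low and high sets described above. The 6 low members were higher in the BLA, by 1.27 for COX2 (SE 0.05, adjusted p = 1.4e-21), 1.14 for COX3, 1.05 for ND4L, 0.89 for ND3, 0.88 for ATP6 and 0.77 for ATP8. COX2 ran from 38.7 through 50.5 to 63.6 CPM in the BLA and from 17.8 through 21.0 to 24.7 CPM in the hippocampus. These ranges did not overlap, nor did those of COX3 and ND3. The chromosome 1 copies with rows of their own went further the same way: Gm10925 was higher by 2.22 (SE 0.08) and Gm10222 by 2.11 (SE 0.11), each without overlap.

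Among the 7 high members 4 were lower in the BLA. ND2 ran from 1270 through 2642 to 3868 CPM in the BLA and from 2872 through 3376 to 3976 CPM in the hippocampus, with 12 of 19 BLA libraries below the lowest hippocampal one. Its log2 change was -0.42 (SE 0.09, adjusted p = 1.1e-04). ND4 gave -0.33 (SE 0.11, adjusted p = 0.0074), ND1 -0.27 (SE 0.07, adjusted p = 5.5e-04) and COX1 -0.15 (SE 0.06, adjusted p = 0.032), the last of which was lost without BLA naive control replicate 4, BLA trained APP/Tau replicate 2 or hippocampal naive control replicate 5 (adjusted p = 0.053 to 0.059). The values of ND4 and COX1 are uncertain in part, since 62.2% and 51.1% of their stretches recur in other genes. ND6 was higher by 0.18 (SE 0.07, adjusted p = 0.015), and ND5 (0.02) and CYTB (-0.05) did not pass. The ribosomal RNAs mt-Rnr1 and mt-Rnr2 were lower in the BLA as well, at -0.54 and -0.43 (SE 0.08 each).

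Complex I had 24 of 37 members higher and 1 lower in the BLA. Ndufa13 ran from 106 through 116 to 188 CPM in the BLA and from 65.0 through 74.5 to 79.5 CPM in the hippocampus, so every BLA library stood above every hippocampal one. Its log2 change was 0.76 (SE 0.06, adjusted p = 1.3e-14), and Ndufc1 (0.59), Ndufb5 (0.56) and Ndufb7 (0.53), further accessory subunits, also did not overlap between tissues. The exception was the accessory subunit Ndufb4, at 5.47 to 10.6 CPM in the BLA and 15.6 to 19.1 CPM in the hippocampus, again without overlap. Its log2 change was -1.10 (SE 0.06, adjusted p = 3.0e-17), and 37.0% of its 50-base stretches recur in other genes. The 7 nuclear core subunits moved less, with 3 higher, none lower and a median of 0.08.

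All 4 members of complex II lay above 0, and the larger catalytic subunits passed: Sdha, the flavoprotein, ran from 436 through 494 to 558 CPM in the BLA and from 364 through 378 to 413 CPM in the hippocampus. These ranges did not overlap, and the log2 change was 0.35 (SE 0.03, adjusted p = 3.2e-14). Sdhb, the iron-sulphur subunit, gave 0.25, and the membrane anchors Sdhc (0.11) and Sdhd (0.06) did not pass. In complex III 4 of 8 were higher, led by Uqcr11 at 0.59, and the core protein Uqcrc2 was lower at -0.11 while its partner Uqcrc1 was higher at 0.16.

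Complex IV had 11 of 18 tested members higher and 3 lower. Cox7c (0.62), Cox6a1 (0.49) and Cox4i1 (0.38) led among subunits of wide expression, and Cox7c shares 53.0% of its stretches with other genes. Isoforms of restricted expression did not move as a set: Cox6a2 (0.45) and Cox4i2 (0.29) were higher in the BLA, Cox6b2 (-0.87, SE 0.17) and Cox8b (-2.98, SE 0.45) were lower, and Cox7a1 (-0.20) and Cox7b2 (0.31) did not pass. Among their counterparts Cox7a2 (0.37), Cox6b1 (0.34), Cox7a2l (0.25) and Cox8a (0.14) were higher, Cox7b (-0.12) was lower and Ndufa4 (0.04) did not pass. Cox8b had 0 to 0.164 CPM in the BLA and 0.0159 to 1.20 CPM in the hippocampus, and these ranges overlapped.

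Complex V had 10 of 17 members higher and 4 lower. The catalytic subunits Atp5a1 (0.26) and Atp5b (0.14) were higher, and so were Atp5j2 (0.40) and the chromosome 16 genes Atp5j (0.23) and Atp5o (0.16). The 3 genes for the c subunit of the membrane ring did not move together, since Atp5g1 (0.24) and Atp5g3 (0.24) were higher and Atp5g2 lower. Atp5g2 ran from 0.353 to 1.03 CPM in the BLA and from 2.17 to 5.22 CPM in the hippocampus without overlap, a log2 change of -2.32 (SE 0.10, adjusted p = 1.7e-20). Of its 50-base stretches 87.4% recur in other genes, as do 84.9% of those of Atp5l (-0.43), so these values are uncertain. The gamma subunit Atp5c1 (-0.14) and the small membrane subunit Atp5k (-0.13) were also lower. Among the 35 nuclear members tested that share no such stretch, 21 were higher and 2 lower with a median of 0.23.

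**Figure D5:**
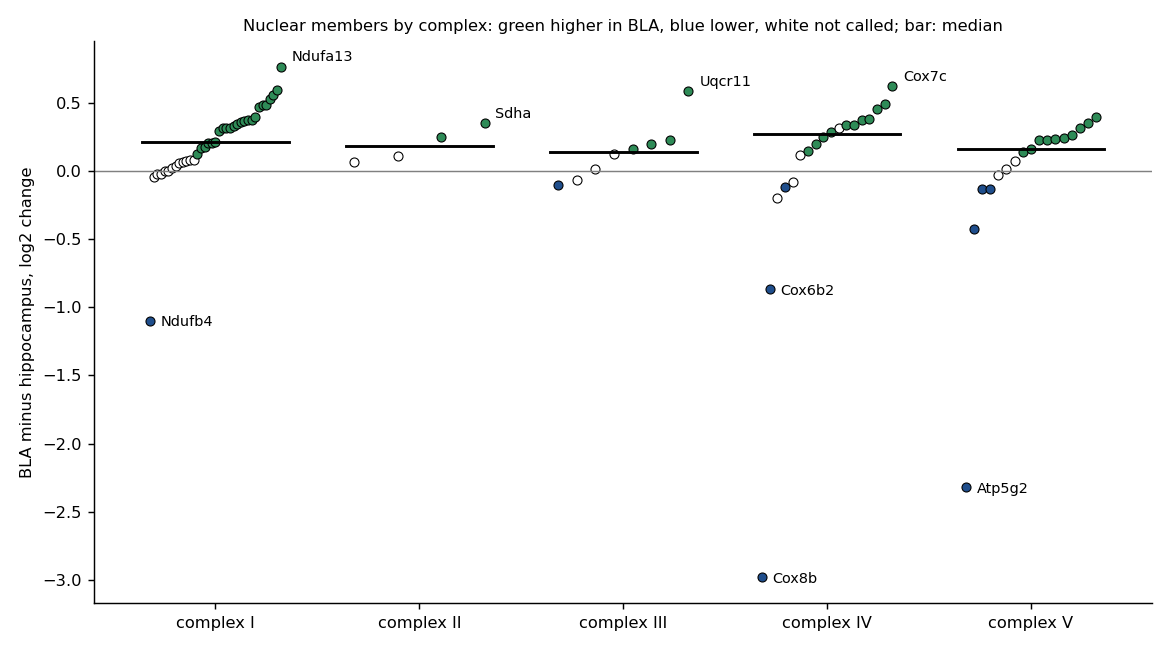
BLA minus hippocampus log2 change of the 84 nuclear members tested, grouped by complex and ordered by size within it, with filled points for members that passed the test and a bar for the median. Most filled points lie above 0, and Cox8b (-2.98), Atp5g2 (-2.32), Ndufb4 (-1.10) and Cox6b2 (-0.87) stand apart below.

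The lists of helper genes were read against the 64.5% called among all genes. Of 49 assembly factors 23 were higher and 5 lower in the BLA, and of 75 mitochondrial ribosomal proteins 34 were higher and 13 lower. Of the 12 nuclear regulators 8 were lower, among them Gabpa (-0.46), Ppargc1a (-0.24), Nrf1 (-0.22) and Yy1 (-0.14), which bind or coactivate respiratory gene promoters, and 4 were higher. Genes of mitochondrial RNA processing were 7 higher and 9 lower of 19, with Lrpprc at 0.25.

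The promoter sequences of the nuclear members were searched for core motifs of the sites of these regulators. RefSeq promoters (build GRCm38.p6, 300 bases around the start) matched 69 member genes with 74 promoters. The NRF1 core motif, GCGCA and GCGC with any 1 base between them, on either strand, was in 24.3% of them against 4.6% of all 32851 promoters. The ETS letters of the GABPA family, CCGGAAG, were in 23% against 8.86%, and the YY1 letters AAGATGG in 14.9% against 6.34%. Any of these motifs was in 54.1% against 18%, and the motifs do not contain each other. A match describes letters and does not show binding.

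The 250 bases before the start are shown for the nuclear member called by genotype, Cox6b2, and for members that moved in opposite directions between the tissues, Sdha (higher in the BLA) and Ndufb4 (lower). Capitals mark the NRF1 core motif. All 3 are 5′ to 3′ on the minus strand of GRCm38.p6, at chr7:4753095-4753344, chr13:74350241-74350490 and chr16:37654369-37654618.
Cox6b2: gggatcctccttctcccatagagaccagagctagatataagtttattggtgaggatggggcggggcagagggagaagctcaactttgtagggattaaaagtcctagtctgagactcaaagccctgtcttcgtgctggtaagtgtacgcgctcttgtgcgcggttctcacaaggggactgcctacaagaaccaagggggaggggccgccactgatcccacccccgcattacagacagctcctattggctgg
Sdha: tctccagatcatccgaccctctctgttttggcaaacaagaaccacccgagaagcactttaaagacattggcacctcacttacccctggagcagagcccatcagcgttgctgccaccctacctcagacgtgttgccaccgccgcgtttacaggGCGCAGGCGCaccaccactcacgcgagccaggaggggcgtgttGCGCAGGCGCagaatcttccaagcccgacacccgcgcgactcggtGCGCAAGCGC
Ndufb4: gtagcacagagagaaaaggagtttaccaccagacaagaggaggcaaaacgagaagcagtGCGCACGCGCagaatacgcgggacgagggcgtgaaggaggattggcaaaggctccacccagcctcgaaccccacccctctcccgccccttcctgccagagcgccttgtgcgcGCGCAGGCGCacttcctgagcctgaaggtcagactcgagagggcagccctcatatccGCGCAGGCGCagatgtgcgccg

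Sdha and Ndufb4 each hold the NRF1 motif 3 times in these windows, and Cox6b2 holds none. The tissue differences were 0.35 for Sdha, -1.10 for Ndufb4 and -0.87 for Cox6b2. Any part of the motif in these differences was not tested.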

How the data were processed

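Poly(A) RNA of the cleared lysate was sequenced as paired-end reads of 2 × 50 bases, and whole-number gene counts, not normalized, were deposited by the authors. The submitters' processing notes name Trimmomatic 0.39 and build mm39. Which aligner and counter were run, with what strand setting and what treatment of reads that fit several places, is not given in the sources used here.

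The members and gene lists were chosen with earlier results of these data known. Groups were read from the labels. Counts were fitted in R 4.3.3 with edgeR 4.0.16 (TMM factors, filterByExpr with a minimum count of 10, quasi-likelihood F test, 2-sided), once per tissue with the 4 group means and once over both tissues with 8. A gene was called at an adjusted p (Benjamini-Hochberg over all genes tested) under 0.05. The SE was the absolute log2 change divided by the root of the F statistic. CPM values of single genes carry TMM factors, while summed CPM (markers, low members), Rn18s-rs5, Rn7sk and the count shares are scaled by the total count alone. The steps were tested on simulated data.

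The text names all mitochondrially encoded members, called nuclear members (at most the 6 with the largest change in each direction, from a mean of 1 CPM) or the 3 with the smallest p, tissue-restricted isoforms with their counterparts, the chromosome 16 members of complex V and the member of each complex with the highest CPM, of which 1 is not reported here. Other genes were named after their values were seen. Alternatives were DESeq2 1.42.0, limma-voom 3.58.1, other scalings and filters, a block and leaving out each library. The block was the replicate number within a tissue and the library number over both tissues. Leaving out 18S-rich libraries was added after seeing the data. Sequence sharing was read from GENCODE transcripts of GRCm38, not mm39.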

Additional observations from a re-analysis of the deposited data

Results flagged for a closer look

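In 11 of 176 groups of 4 to 6 libraries examined, 1 library stood far from the rest of its group by Dixon's test, where chance gives about 1 in 20. In the hippocampus COX2 (19.3 CPM against 22.9 to 24.8) and ATP6 (21.2 against 25.6 to 27.9) were low in trained control replicate 4. COX3 (15.1 CPM against 17.7 to 17.8) and ND4L (2.02 against 3.08 to 3.28) were low in trained APP/Tau replicate 1, the library on which the ND4 call rests. ATP8 was high in naive APP/Tau replicate 3 (8.59 CPM against 6.18 to 6.79), and Ndufa2 was low in trained APP/Tau replicate 2 (36.3 CPM against 44.4 to 45.0). In the BLA COX2 was high in naive control replicate 5 (62.8 CPM against 45.2 to 50.2), ND4L was low in naive APP/Tau replicate 2 (4.13 against 6.84 to 7.64) and ND6 was low in trained APP/Tau replicate 2 (905 against 1496 to 1514). Ndufa2 was high in 18S-rich naive control replicate 1 (100.0 CPM against 44.2 to 56.5) and in trained control replicate 3 (71.7 against 43.8 to 49.7).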

How the results depend on the processing

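No result reversed. For the averaged genotype effect in the hippocampus the count of mitochondrially encoded members called was 2, against 4 with DESeq2, 1 without a filter on low counts and 1 with the replicate block. ND4 was called in each, and ND2 was lost in both of the last (adjusted p = 0.072 and 0.067). Over all genes these settings called 16.8%, 5.72% and 16.1%, against 11.1%. The nuclear count was 1, against 2 with DESeq2, 0 with limma-voom, 2 with a mean of at least 1 CPM and 0 without the 18S-rich libraries. In trained hippocampus DESeq2 called 4 mitochondrially encoded and 1 nuclear member, and in naive BLA 1 nuclear member (Cox7a1), where edgeR called 0. Leaving out 1 library moved the hippocampal averaged counts between 0 and 3 (mitochondrially encoded) and 0 and 5 (nuclear), and the trained ones between 0 and 1 and 0 and 4. The mitochondrially encoded count was 0 without trained APP/Tau replicate 1, 1 in 13 fits and 3 in 5, and the nuclear count was 0 in 9 fits. The highest nuclear counts came without trained APP/Tau replicate 2 (5, averaged) and replicate 4 (4, trained). It moved the tissue counts between 10 and 11 and between 60 and 64. The other 12 comparisons kept 0 calls in each such fit. Without 1 library, the log2 ratio differed between genotypes by -0.14 to -0.10 in the hippocampus and -0.26 to -0.08 in the BLA. Its training difference ran from 0.02 to 0.08 in hippocampal controls, -0.06 to 0.01 in hippocampal APP/Tau, 0.13 to 0.50 in BLA controls and -0.37 to -0.09 in BLA APP/Tau mice. The title numbers shared by groups were not taken to pair the libraries (27 pairs in each tissue, mean correlation 0.03 in the hippocampus and -0.02 in the BLA). Library numbers shared by the tissues correlated weakly, from 0.06 to 0.29 over 19 pairs (mean 0.13, 11 above 0.1, other pairs -0.01), and whether they mark the same mouse is not given in the labels. A fit over both tissues with a block for each library number, limited to numbers found in both, called 11 mitochondrially encoded and 63 nuclear members. It called 66.9% of 26224 genes.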
